A study of Homo sapiens with 18 samples.

Results

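The 50 genes described here encode proteins of the small subunit processome and of the later maturation of the 40S ribosomal subunit. They were chosen by name as known members of this pathway and matched by gene symbol, and all 50 were found among the 17017 symbols of the deposited table. The small subunit processome is the large particle that assembles on the nascent precursor of ribosomal RNA, guided by the U3 small nucleolar ribonucleoprotein, and that cleaves and folds the part that becomes 18S rRNA. The pre-40S particle released from it is then exported and finished in the cytoplasm by a further set of factors. Fibrillarin (FBL), the gene targeted in the study, is the 2′-O-methyltransferase of the box C/D ribonucleoproteins and is itself a core protein of the U3 particle.

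MDA-MB-231 is an established human line from a triple-negative breast carcinoma. All groups were transduced with lentivirus from a pLKO.1 vector and selected with puromycin. The control carried a scramble hairpin, read here as the label SC. The other 2 groups, SH2 and SH3, carried hairpins against fibrillarin mRNA, and which of them is the study's knockdown 1 or 2 is not told by the labels. Selected populations were used, and no clone is described. Cells were treated with cycloheximide before lysis. Part of the cleared lysate served as RNA input (IN), and ribosome-protected fragments (RPF, footprints) were sequenced beside it. Each treatment has 3 IN and 3 RPF libraries, 18 in all. The labels do not say whether replicates were separate cultures, so the p-values measure only the spread between these libraries, which may be technical.

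The targeted gene was checked first. FBL RNA was 395, 349 and 421 CPM (read counts scaled to the library's adjusted total) in the SC libraries, 1.26, 4.52 and 11.2 in SH2 and 3.36, 4.15 and 2.95 in SH3, so every hairpin library lay far under every SC library. Total counts ran from 23469830 to 27629488 in IN and from 1662705 to 6098648 in RPF. The line's defining mesenchymal marker VIM stood at 4081 to 7223 CPM over the IN libraries, while the luminal markers ESR1 and PGR reached at most 0.0412 and 0.0816 CPM, and CDH1 0.449 CPM. Other luminal markers were detected, with ERBB2 at 79.2 to 104 CPM, GATA3 at 7.62 to 13.2 and EPCAM at 4.92 to 9.15. The lymphocyte marker CD3E reached 0.042 CPM, and the fibroblast marker PDGFRA 0.178 CPM. Some markers of the line itself moved with the groups. CAV1 ran from 131.5 to 180.5 CPM in SC, 103.4 to 112.3 in SH2 and 65.1 to 80.4 in SH3. KRT18 ran from 468.7 to 519.3, 578.5 to 722.3 and 630.3 to 716.7 CPM in that order. AXL lay below SC in SH2 (757.9 to 968.9 against 1207.2 to 1786.7 CPM) and CD44 above it (454.1 to 555.9 against 256.4 to 403.7). In SH3 both overlapped SC. VIM and MSN overlapped SC with either hairpin. Some markers of other cells moved as well. COL1A1 ran from 25.9 to 42.4 CPM in SC, 50.4 to 100.5 in SH2 and 61.7 to 77.4 in SH3. COL3A1 ran from 0.0787 to 0.165, 0.569 to 0.824 and 0.0839 to 0.421 CPM, and PTPRC, a leukocyte marker, from 1.195 to 1.47, 0.235 to 0.498 and 0.153 to 0.320 CPM. The part of these markers in the members' changes was not tested. CPM values are shares of a library, so fewer cells of a kind and less RNA per cell cannot be told apart in these bulk lysates.

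Changes are given as log2 fold changes from edgeR's quasi-likelihood test, with their standard error (SE) after the ± sign, and "called" means a Benjamini-Hochberg adjusted p under 0.05 over all genes tested. In RNA, 49 of the 50 genes passed the filter on low counts. The exception was PWP2, a UTP-B protein, with 1 to 12 RNA counts and 0 to 3 footprint counts per library, for which no fold change is given. Whether the PWP2 counts come from its expression, the annotation or the counting of reads matching several places was not tested. With SH2, RNA was called higher for 21 genes and lower for 7, and 21 were not called. Over all 12710 genes tested, 31.1% were called higher and 30.4% lower in that comparison. With SH3, RNA was higher for 22 genes and lower for 4, where 27.8% of all genes were called higher and 25.2% lower. Leaving out SH3 replicate 2 took the 26 SH3 calls to 17, and the share of all genes called from 53% to 45%. The median RNA change over the 49 genes was 0.18 with SH2 and 0.25 with SH3, and over all genes tested 0.01 and 0.03. The members' median was 0.11 without SH2 replicate 2 and, for SH3, 0.15 without SH3 replicate 2. Called genes among the members were thus about as frequent as among all genes, with more of them on the higher side, a difference that was not tested. Both comparisons use the same SC libraries.

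Fewer calls were made in footprints. With SH2, 13 of the 49 genes were called higher and 9 lower, against 21% and 23.2% of the 10345 genes tested. With SH3, 10 were higher and 3 lower, against 16.9% and 19%. Median footprint changes were 0.18 and 0.20, the second being 0.12 without SH3 replicate 2, beside -0.0042 and -0.014 over all genes tested. The plot of changes by role sets the RNA and footprint values of all 49 genes side by side.

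**Figure D1:**
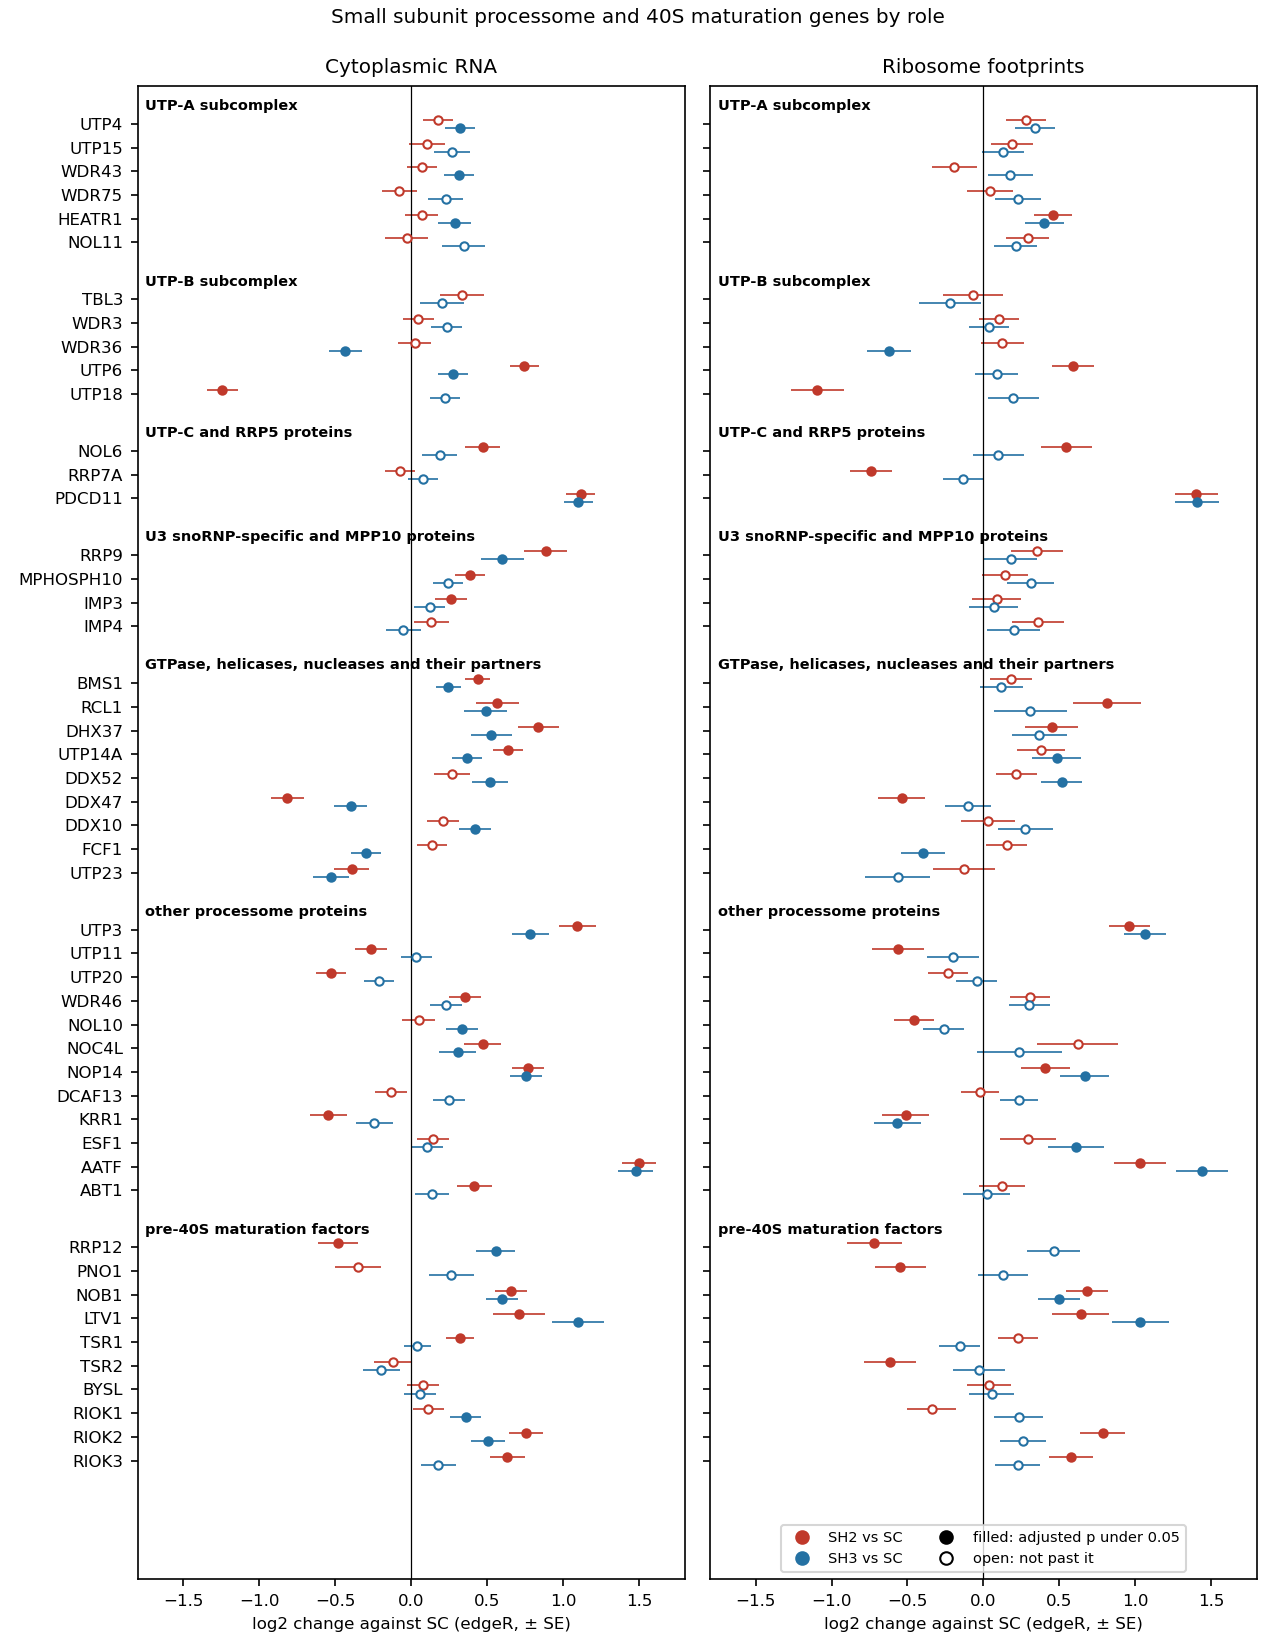
The horizontal axes give log2 changes against SC from edgeR (RNA left, footprints right) with their standard errors for the 49 genes tested, grouped by role, SH2 in red and SH3 in blue, filled where the adjusted p is under 0.05. AATF, PDCD11, UTP3 and LTV1 lie farthest to the right in RNA with SH3, and UTP18 lies at -1.24 with SH2 but at 0.22 with SH3.

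Of the genes called higher in RNA with both hairpins, AATF, PDCD11, UTP3 and LTV1 had the largest mean change over the 2 comparisons. With SH2 alone, RRP9, DHX37, NOP14, RIOK2 and UTP6 changed by more than LTV1. Stretches of 100 bases from their promoters, and that of UTP18, which fell under 1 hairpin, are shown because these genes carry the results that follow. The sequences come from the RefSeq promoter table for GRCh38.p14, which held 44 of the 50 genes (not MPHOSPH10, DDX52, UTP23, NOL10, DCAF13 and RRP12). All are on the plus strand and upstream of the annotated transcription start, read 5′ to 3′. They lie at chr17:36948789-36948888 (165 to 66 bases before the start), chr10:103396526-103396625, chr4:70688432-70688531, chr6:143843238-143843337 and chr17:51260446-51260545 (each 100 to 1 bases before it). Capitals mark matches, on either strand, to the E-box CACGTG, the ETS-type motif CCGGAAGT or the CCAAT box.
AATF: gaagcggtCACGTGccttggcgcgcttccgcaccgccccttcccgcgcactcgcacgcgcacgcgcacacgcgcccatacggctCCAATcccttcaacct
PDCD11: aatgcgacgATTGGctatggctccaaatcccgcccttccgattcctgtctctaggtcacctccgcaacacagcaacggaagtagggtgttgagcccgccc
UTP3: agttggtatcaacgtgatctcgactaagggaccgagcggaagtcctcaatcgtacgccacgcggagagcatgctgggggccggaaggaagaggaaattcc
LTV1: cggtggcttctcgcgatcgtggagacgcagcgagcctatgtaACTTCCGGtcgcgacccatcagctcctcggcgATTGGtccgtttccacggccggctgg
UTP18: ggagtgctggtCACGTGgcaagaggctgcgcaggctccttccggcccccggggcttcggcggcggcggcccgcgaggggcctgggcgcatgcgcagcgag

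In the AATF stretch the E-box begins 157 bases and the CCAAT box 81 bases before the start. PDCD11 has a CCAAT box on the minus strand at 91 bases, and LTV1 has an ETS-type match at 58 and a CCAAT box at 26 bases, both on the minus strand. UTP18 has an E-box at 89 bases. In UTP3 none of the 3 motifs occurs in the 250 bases before the start. Over the 44 matched promoters, the E-box occurs in 6 (13.6%, against 6.49% of 27305 promoters in the table), the ETS-type motif in 5 (11.4% against 3.64%) and the CCAAT box in 20 (45.5% against 33%). The promoters in the table were not restricted to genes expressed here, so the sets are unlike, and the differences in share were not tested. The 6 with an E-box are IMP4, UTP20, UTP4, AATF, UTP18 and UTP14A. Their RNA changes with SH2 were 0.13, -0.53, 0.18, 1.50, -1.24 and 0.64 in that order. IMP4 and UTP4 were not called, and a relation of motif to change was not tested. Only NOB1 and UTP14A start at a C with at least 5 pyrimidines in a row, 2 of 44 (4.55%) against 4.04% of all promoters in the table. No match to 1 motif overlapped a match to another in the stretches shown. A match is a description, not a site.

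AATF encodes a nucleolar protein of the processome that is also known as an apoptosis antagonist. Its RNA was 76.9, 103 and 89.3 CPM in SC, 249, 252 and 259 in SH2 and 234, 279 and 235 in SH3. Its footprints were 185, 118 and 131.4 CPM in SC, 346, 280.0 and 265 in SH2 and 378, 439.6 and 364 in SH3. In both measures all 6 hairpin libraries lay above all SC libraries. The RNA change was 1.50 ± 0.11 with SH2 and 1.48 ± 0.11 with SH3 (edgeR adjusted p = 1.66e-07 and 4.33e-07). The footprint change was 1.03 ± 0.17 and 1.44 ± 0.17 (edgeR adjusted p = 0.000183 and 2.00e-05). AATF had the largest RNA rise of the 49 genes under either hairpin.

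PDCD11, the human RRP5, binds the precursor RNA along its length and is needed for both subunits. RNA stood at 140.1, 128 and 133 CPM in SC, 262, 302 and 305 in SH2 and 267, 295 and 297 in SH3. Footprints were at 33.6, 37.5 and 36 CPM in SC, 91.1, 90.2 and 100.4 in SH2 and 86.1, 105 and 90.8 in SH3. No hairpin library overlapped SC in either measure. RNA rose by 1.12 ± 0.09 on the log2 scale with SH2 and by 1.10 ± 0.09 with SH3 (edgeR adjusted p = 4.04e-07 and 1.06e-06). Footprints rose by 1.40 ± 0.14 and 1.41 ± 0.14 (edgeR adjusted p = 2.50e-06 and 4.65e-06). The change in footprints relative to RNA, 0.27 ± 0.15 and 0.32 ± 0.15, was not called with either hairpin (edgeR adjusted p = 0.367 and 0.398).

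UTP3, the human counterpart of yeast Sas10, is a structural protein of the processome. SC libraries held 27.1, 39.6 and 34.5 CPM of its RNA, SH2 libraries 75.2, 69.1 and 71.8 and SH3 libraries 56.2, 61.4 and 56.8. Its footprints ran at 46.3, 48.4 and 48.3 CPM in SC, 99.6, 93.5 and 84.8 in SH2 and 102, 105 and 91.8 in SH3. Here too the hairpin libraries lay above SC without overlap. RNA changes were 1.09 ± 0.12 and 0.79 ± 0.12, and footprint changes 0.96 ± 0.14 and 1.06 ± 0.14 (edgeR adjusted p of at most 0.000127 in all 4 comparisons).

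LTV1 helps to place ribosomal proteins in the head of the pre-40S particle. It had the lowest RNA level of these 4 genes, 14.7, 26.5 and 21.3 CPM in SC, 29.5, 38.4 and 34.2 in SH2 and 40.9, 46.2 and 46.7 in SH3. Footprint levels were 52.1, 32.4 and 41.9 CPM in SC, 72.9, 53.4 and 75.1 in SH2 and 74.3, 93.1 and 94.3 in SH3. The 3 SC libraries spread widely, yet the lowest hairpin library stayed above the highest SC library in both measures. RNA rose by 0.71 ± 0.17 with SH2 and 1.10 ± 0.17 with SH3, and footprints by 0.64 ± 0.19 and 1.03 ± 0.19 (edgeR adjusted p from 0.000123 to 0.011). One further locus in RefSeq carries the name of an LTV1 pseudogene, and how reads that match several places were counted is not given in the sources used here.

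Among genes that fell, DDX47, a DEAD-box RNA helicase, had RNA of 135, 114 and 119 CPM in SC, 76.2, 73.4 and 59.7 in SH2 and 94.8, 96.4 and 87.7 in SH3. All SC libraries lay above the hairpin libraries. The RNA changes were -0.81 ± 0.11 and -0.40 ± 0.11 (edgeR adjusted p = 2.15e-05 and 0.00665), and SH2 was lower than SH3 by -0.41 ± 0.11 (edgeR adjusted p = 0.00807). Its footprints, 135, 202 and 167 CPM in SC, 116, 118 and 111 in SH2 and 149, 175 and 143 in SH3, were called lower only with SH2 (-0.54 ± 0.15, edgeR adjusted p = 0.00975), while with SH3 the change was -0.10 ± 0.15 (edgeR adjusted p = 0.634). SC and SH3 footprint libraries overlapped.

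UTP23, a PIN-domain protein that takes part in the release of a small nucleolar RNA, had 40.8, 37.2 and 38.1 CPM of RNA in SC, 26.6, 35.1 and 26.7 in SH2 and 26.1, 28 and 26.4 in SH3. Every SC library was above every hairpin library. RNA changes were -0.39 ± 0.12 and -0.53 ± 0.12 (edgeR adjusted p = 0.00983 and 0.00185). Its footprints, 33.1, 23.6 and 30.2 CPM in SC, 31.8, 21.2 and 28.5 in SH2 and 17.6, 24 and 17.5 in SH3, overlapped between SC and each hairpin. Footprint changes were -0.13 ± 0.20 and -0.56 ± 0.21 and were not called (edgeR adjusted p = 0.635 and 0.0506). The second was called lower with no filter and without SC replicate 2 or SH3 replicate 2 (edgeR adjusted p from 0.0251 to 0.045).

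KRR1, a KH-domain protein of the processome, fell in footprints under both hairpins. Footprints were 154, 142 and 139 CPM in SC, 123, 82.1 and 100.4 in SH2 and 86.1, 100.3 and 106 in SH3, with no overlap between SC and the hairpins. The changes were -0.51 ± 0.15 and -0.57 ± 0.16 (edgeR adjusted p = 0.0135 and 0.0101). Without SH2 replicate 2 the first was not called (edgeR adjusted p = 0.0876), nor was the second without SH3 replicate 1 (edgeR adjusted p = 0.0509). RNA, at 162, 165 and 163 CPM in SC, was 98.4, 139 and 98.8 in SH2 and 128, 146 and 141 in SH3. It was called lower with SH2 (-0.55 ± 0.12, edgeR adjusted p = 0.00152) and not with SH3 (-0.24 ± 0.12, edgeR adjusted p = 0.111), although every SH3 library lay below every SC library. That SH3 change was called with only the groups compared (edgeR adjusted p = 0.0121) and with the replicate block (0.0499). KRR1 overlaps the coding gene GLIPR1 and has 1 copy by name in RefSeq, and strand use in counting is not stated, so its reads are uncertain.

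**Figure D2:**
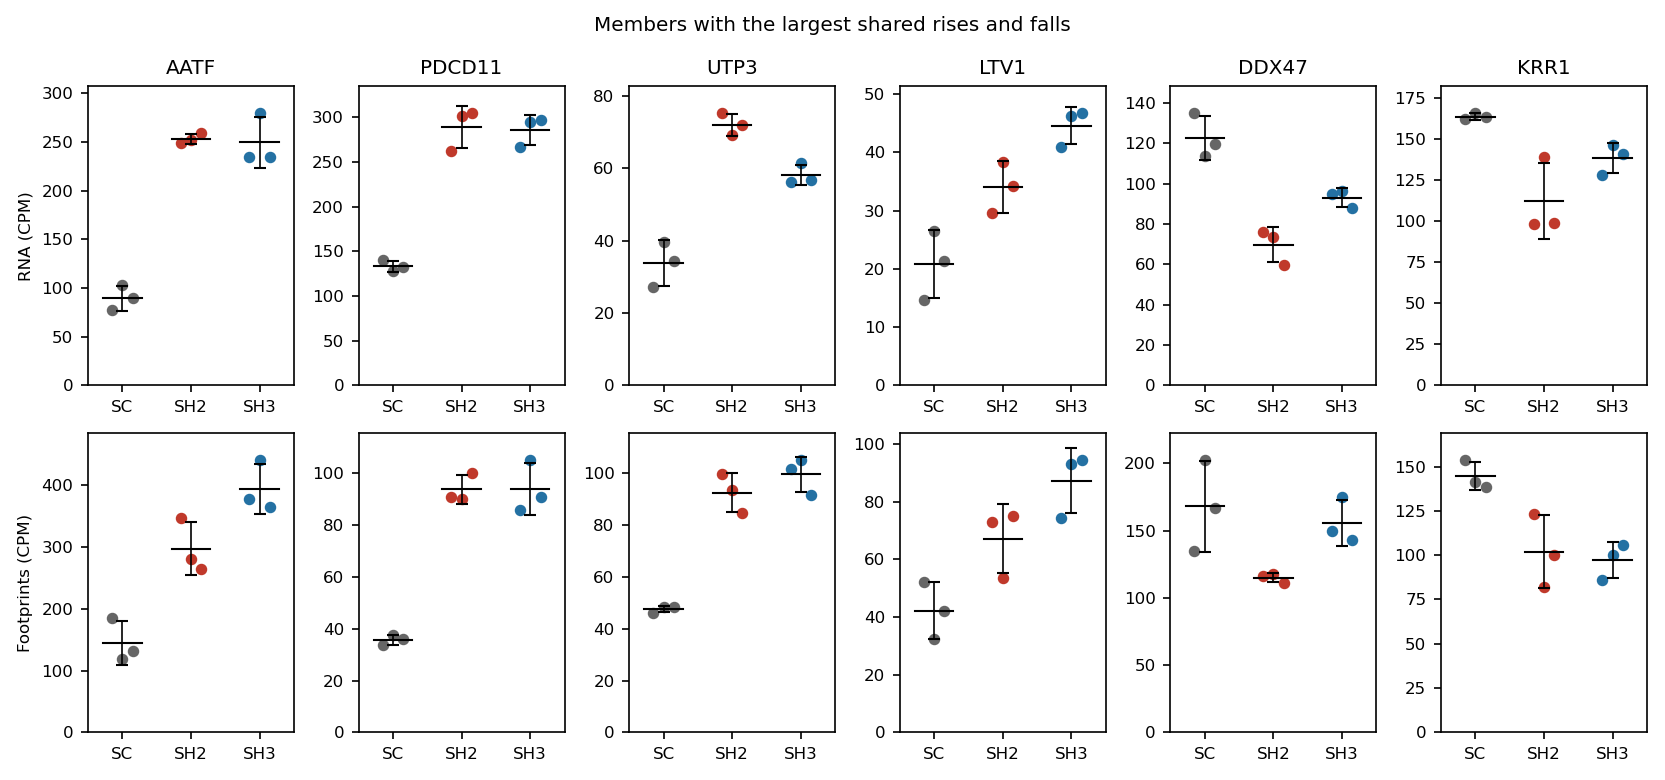
Each point is 1 library, on a vertical axis of CPM from 0 (RNA in the upper row, footprints in the lower), for SC, SH2 and SH3, with bars for the mean and SD of 3 replicates. For AATF, PDCD11, UTP3 and LTV1 all hairpin points lie above the SC points in both rows, and for DDX47 the SC points lie above the hairpin points in the RNA row.

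The 2 hairpins differed from each other at several of these genes. SH2 RNA was called above SH3 for 6 of 49 genes and below for 10, against 18.9% and 20.4% of all genes tested. That count of 16 fell to 8 without SH3 replicate 3, and the share of all genes called from 39.3% to 29%. In footprints 5 genes were higher and 6 lower in SH2, against 12.1% and 11.6%. These 11 became 7 without SH2 replicate 1 and 7 without SH2 replicate 2. The share of all genes called went from 23.8% to 20% and 16% in these fits.

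UTP18, a WD-repeat protein of the UTP-B subcomplex, showed the largest difference. Its RNA was 126, 119 and 135 CPM in SC, 52.3, 57.9 and 50.4 in SH2 and 133, 164 and 147 in SH3. Footprints were 114, 93.5 and 107 CPM in SC, 58.1, 40.3 and 50.2 in SH2 and 96, 142 and 121 in SH3. Only the SH2 libraries were low, and they overlapped no other group. Against SC, SH2 RNA changed by -1.24 ± 0.10 (edgeR adjusted p = 3.51e-07) and SH3 RNA by 0.22 ± 0.10 (edgeR adjusted p = 0.0763). The SH3 change was called with plain library totals (edgeR adjusted p = 0.017), which took the all-gene SH3 median from 0.03 to 0.12. Between the hairpins, SH2 was lower by -1.46 ± 0.10 in RNA and -1.29 ± 0.18 in footprints (edgeR adjusted p = 2.61e-07 and 0.0001). UTP18 overlaps the coding gene MBTD1 in RefSeq, so without strand information some of its reads could belong to that gene.

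RRP12, a HEAT-repeat protein that takes part in the export of both subunits, was called lower in RNA with SH2 and higher with SH3. It was the only 1 of the 49 genes called in opposite directions, a share not computed over all genes tested. In the comparison lists, 1 of 47 60S assembly factors was, 0 of 28 other processome and pre-40S genes and 0 of 32 40S ribosomal proteins. RRP12 RNA stood at 129, 91.8 and 102 CPM in SC, 70, 80.3 and 81.2 in SH2 and 138, 179.7 and 157 in SH3. SH2 lay below and SH3 above every SC library. RNA changed by -0.48 ± 0.13 with SH2 and 0.56 ± 0.13 with SH3 (edgeR adjusted p = 0.00602 and 0.00277). Its footprints, 111, 174 and 137 CPM in SC, 76.7, 86.5 and 91 in SH2 and 149, 222 and 203 in SH3, were lower in SH2 (-0.72 ± 0.18, edgeR adjusted p = 0.00421), and with SH3 gave 0.46 ± 0.18 (edgeR adjusted p = 0.0511). This last change missed the threshold narrowly and was called higher in 7 of 12 alternatives, over which the adjusted p ran from 0.00794 to 0.212; DESeq2 gave 0.0466 and the replicate block 0.0106. SC and SH3 footprint libraries overlapped. The difference between the hairpins was -1.03 ± 0.13 in RNA and -1.18 ± 0.18 in footprints (edgeR adjusted p = 4.58e-05 and 0.000274).

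PNO1, a KH-domain partner of the nuclease NOB1, had RNA of 31.3, 29.2 and 28.7 CPM in SC, 18.1, 29.5 and 22.2 in SH2 and 32, 39.4 and 35.7 in SH3. Its footprints were 72.2, 84.7 and 67.6 CPM in SC, 56.7, 45.9 and 50.8 in SH2 and 76.7, 100 and 67 in SH3. SH2 overlapped SC in RNA through its replicate 2 and lay below both other groups in footprints. RNA differed between the hairpins by -0.62 ± 0.15 (edgeR adjusted p = 0.00532), whereas neither hairpin was called against SC (SH2 -0.35, SH3 0.26; edgeR adjusted p = 0.0563 and 0.152). With the replicate number as a block the SH2 value was -0.38 and called (edgeR adjusted p = 0.0169), as it was by DESeq2 (adjusted p = 0.036) and, at -0.56, without SH2 replicate 2 (edgeR adjusted p = 0.00255). PNO1 footprints with SH2 changed by -0.55 ± 0.17 (edgeR adjusted p = 0.0151; 0.0753 without SH2 replicate 2).

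WDR36, a UTP-B protein, went the other way. RNA was 124, 101 and 111 CPM in SC, 108, 128 and 105 in SH2 and 76.6, 90.2 and 82 in SH3. Footprints were 136, 169 and 129 CPM in SC, 157, 162 and 152 in SH2 and 93.1, 103 and 84.8 in SH3. In both measures the SH3 libraries lay below all others, and SC and SH2 overlapped. Against SC, SH3 changed by -0.43 ± 0.11 in RNA and -0.62 ± 0.14 in footprints (edgeR adjusted p = 0.00436 and 0.0032), and SH2 was above SH3 by 0.46 ± 0.11 and 0.75 ± 0.14 (edgeR adjusted p = 0.00488 and 0.00154).

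**Figure D3:**
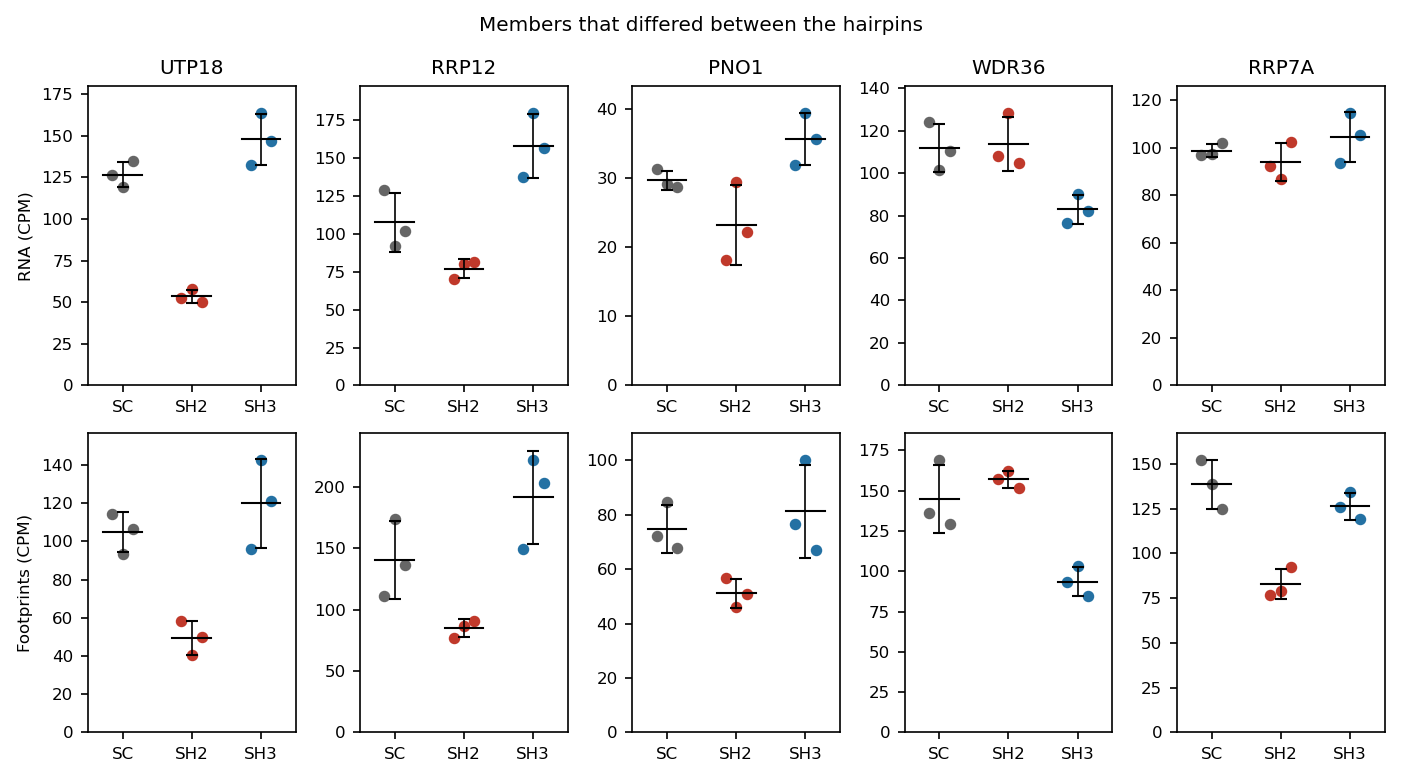
The points are libraries on a CPM axis from 0 (RNA above, footprints below), with the mean and SD of 3 replicates, for 5 genes. UTP18 is low only in SH2 and WDR36 only in SH3, RRP12 lies below SC in SH2 and above it in SH3 in the RNA row, and RRP7A is low in SH2 in the footprint row alone.

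By role, the UTP-A proteins bind the nascent transcript first, and several of them are needed for its synthesis. None of the 6 was called in RNA with SH2 by edgeR or DESeq2, and 0 had an unadjusted p under 0.05. Over all genes tested, edgeR called 61.4%, DESeq2 called 61.2%, and 8273 of 12710 had an unadjusted p under 0.05 in edgeR. With SH3, all 6 had every library above every SC library, as did 4231 of all 12710 genes tested. The median change of the 6 was 0.30, and 3 were called higher, where 27.8% of all genes were. These were UTP4, WDR43 and HEATR1, at 0.32, 0.32 and 0.29. Each of these SH3 calls was lost when a single library was left out (library, then edgeR adjusted p without it), for UTP4 (SC replicate 2, SH3 replicate 2 or 3; 0.0516 to 0.0967), WDR43 (SH3 replicate 2 or 3; 0.0689 to 0.0911) and HEATR1 (SC replicate 1 or 3, SH3 replicate 1 or 2 or 3; 0.0649 to 0.146). The HEATR1 call was also lost with other size factors (edgeR adjusted p = 0.0518). The other 3, NOL11, UTP15 and WDR75, changed by 0.35, 0.27 and 0.23 with SH3. They were called higher with plain library totals (edgeR adjusted p = 0.0289, 0.023 and 0.0295). With the replicate block NOL11 (0.00598) and UTP15 (0.0337) were called too, and NOL11 also with no filter (0.0271) and without SC replicate 2 (0.0134). With plain library totals UTP4 RNA was called with SH2 as well (edgeR adjusted p = 0.0236). That setting took the median RNA change over all genes tested from 0.01 to 0.11 with SH2 and from 0.03 to 0.12 with SH3. HEATR1, a HEAT-repeat protein, had footprints of 107, 114 and 98.7 CPM in SC, 154, 144 and 139.9 in SH2 and 135, 149 and 138 in SH3. These were called higher in both (0.46 ± 0.13 and 0.40 ± 0.13; edgeR adjusted p = 0.00833 and 0.0225), without overlap. The second was not called without SC replicate 3 (0.0905) or SH3 replicate 2 (0.0893). HEATR1 overlaps the coding gene LGALS8.

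UTP-B members act as a second scaffold around U3. Apart from UTP18 and WDR36, UTP6 rose in RNA by 0.75 ± 0.10 and in footprints by 0.59 ± 0.14 with SH2 (edgeR adjusted p = 1.82e-05 and 0.00301). UTP6 RNA rose with SH3 by 0.28 ± 0.10 (edgeR adjusted p = 0.0285). That SH3 call was lost without any SC replicate or SH3 replicate 2 or 3 (edgeR adjusted p from 0.0515 to 0.21). TBL3 and WDR3 were called in no comparison with SC at the settings used throughout. TBL3 RNA with SH2 (0.33) was called with plain library totals (edgeR adjusted p = 0.013), no filter (0.0347), the replicate block (0.0427) and without SC replicate 1 (0.0236). WDR3 RNA with SH3 (0.23) was called with plain library totals (edgeR adjusted p = 0.0122). Among the UTP-C proteins NOL6 rose in RNA with SH2 by 0.47 ± 0.12 (edgeR adjusted p = 0.00289). RRP9, the protein specific to the U3 particle, rose in RNA by 0.88 ± 0.14 and 0.60 ± 0.14 (edgeR adjusted p = 0.00011 and 0.0028). Its footprint changes of 0.35 and 0.18 were not called, the first becoming 0.49 and called without SH2 replicate 2 (edgeR adjusted p = 0.0468). MPHOSPH10, which joins U3 with IMP3 and IMP4, rose in RNA with SH2 by 0.39 (edgeR adjusted p = 0.00402), though RefSeq lists 8 loci named as its copies. IMP3 RNA with SH2 (0.26 ± 0.10, edgeR adjusted p = 0.0431) was not called when any SC replicate or SH2 replicate 3 was left out (adjusted p from 0.053 to 0.26). Nor was it called by edgeR with other size factors (adjusted p = 0.0553), no filter (0.0541) or only the groups compared (0.0931), or by DESeq2 (0.0516). IMP4 was called in neither comparison with SC.

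Of the 9 enzymes and partners, 4 were called higher and 2 lower in RNA with SH2, and 6 higher and 3 lower with SH3. Over all genes tested, 31.1% were called higher and 30.4% lower with SH2, and 27.8% and 25.2% with SH3. DHX37, the helicase that strips U3 from the precursor, rose by 0.84 ± 0.13 and 0.53 ± 0.13 (edgeR adjusted p = 0.00011 and 0.00452), and its activator UTP14A by 0.64 with SH2 (edgeR adjusted p = 6.76e-05). UTP14A rose with SH3 by 0.37 (edgeR adjusted p = 0.0056, and 0.0554 without SH3 replicate 2). The GTPase BMS1 and its partner RCL1 rose with SH2 by 0.44 and 0.57 (edgeR adjusted p = 0.000464 and 0.0033). With SH3 they rose by 0.25 and 0.49 (edgeR adjusted p = 0.0244 and 0.0101). That BMS1 call was lost without SC replicate 1 or 3 or any SH3 replicate (edgeR adjusted p from 0.0648 to 0.169). The RCL1 call was lost without SH3 replicate 2 (edgeR adjusted p = 0.0758). The helicases DDX52 and DDX10 rose with SH3 by 0.52 and 0.42 (edgeR adjusted p = 0.00207 and 0.00367). FCF1, the nuclease of the early cleavages, was lower with SH3 by -0.30 ± 0.10 (edgeR adjusted p = 0.022). That call was lost without SC replicate 3 (edgeR adjusted p = 0.0602) and with plain library totals (0.0929). SH2 lay above SH3 for FCF1 by 0.43 ± 0.10 (edgeR adjusted p = 0.00362). RefSeq lists 11 loci named as FCF1 copies and 21 as BMS1 copies, so both genes' reads are uncertain.

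Among 12 other processome proteins, 6 were called higher and 3 lower in RNA with SH2, and 5 were higher with SH3. The shares of all genes tested were 31.1% higher and 30.4% lower with SH2, and 27.8% higher with SH3. NOP14 is a scaffold bound to NOC4L. Its RNA was 115, 153 and 132 CPM in SC, 219.8, 229.8 and 233 in SH2 and 214, 238 and 224 in SH3, all hairpin libraries above SC, with changes of 0.77 ± 0.10 and 0.75 ± 0.10 (edgeR adjusted p = 2.57e-05 and 4.99e-05). Footprints, 162, 97.7 and 143 CPM in SC, 188, 175 and 174 in SH2 and 208, 229 and 206 in SH3, did not overlap between SC and the hairpins and rose by 0.67 ± 0.16 with SH3 (edgeR adjusted p = 0.00448). With SH2 the footprint change of 0.41 ± 0.16 stood at the threshold (edgeR adjusted p = 0.0498). It was not called when SC replicate 2 or 3 or any SH2 replicate was left out (edgeR adjusted p from 0.072 to 0.179). Nor was it called with plain library totals (edgeR adjusted p = 0.0584) or only the groups compared (0.0789). UTP20, a HEAT-repeat scaffold, fell in RNA with SH2 by -0.53 ± 0.10 (edgeR adjusted p = 0.000428). WDR46, a WD-repeat scaffold, and ABT1 rose with SH2 by 0.35 and 0.42 (edgeR adjusted p = 0.00908 and 0.00595).

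Of the 10 pre-40S factors, 5 were called higher and 1 lower in RNA with SH2, and 5 higher with SH3. Of all genes tested, 31.1% were higher and 30.4% lower with SH2, and 27.8% higher with SH3. NOB1, the nuclease that makes the mature end of 18S rRNA, had RNA of 59.8, 61.6 and 66.1 CPM in SC, 93.5, 96.7 and 105 in SH2 and 83.6, 108 and 92.7 in SH3. Its footprints were 59.1, 58.6 and 61.4 CPM in SC, 92.6, 91.6 and 104 in SH2 and 76.1, 94.2 and 82 in SH3. In both measures every hairpin library was above SC. RNA rose by 0.66 ± 0.11 and 0.60 ± 0.11, and footprints by 0.68 ± 0.14 and 0.50 ± 0.14 (edgeR adjusted p from 0.000107 to 0.0106), the last not called without SH3 replicate 2 (0.0692). The kinase RIOK2 rose in RNA by 0.76 ± 0.11 and 0.51 ± 0.11, and RIOK3 with SH2 by 0.63 ± 0.12 (edgeR adjusted p = 4.89e-05, 0.00162 and 0.0003). RIOK3 was higher in SH2 than in SH3 by 0.45 ± 0.11 (edgeR adjusted p = 0.00654). TSR2, a chaperone of the ribosomal protein RPS26, fell in footprints with SH2 by -0.62 ± 0.17 (edgeR adjusted p = 0.00795), with an RNA change of -0.12, and it overlaps the coding gene FGD1. BYSL, which stays with the particle from nucleolus to export, was called in none of the comparisons by edgeR, nor by DESeq2 or any other alternative.

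Translational efficiency, the change in footprints relative to RNA, was tested for 49 genes in 1 model over all 18 libraries. With SH2 only RRP7A was called, where 3.9% of 12531 genes were. An unadjusted p under 0.05 was reached by 7 of the 49 and by 2248 of all 12531 genes. With SH3 no member was called by edgeR, against 0.686% of all genes. Of the members 3 had an unadjusted p under 0.05, as had 1574 of all 12531. DESeq2 called 1 member with SH3, NOL10, at -0.59 (adjusted p = 0.0119), and 2.83% of all genes. DESeq2 called NOL10 with SH2 as well (adjusted p = 0.0175), where it called 7.26% of all genes. Between the hairpins edgeR called none, against 0.016%. An unadjusted p under 0.05 was reached by 6 members and by 1471 of all 12531 genes. DESeq2 called 1 member there, TSR2 (adjusted p = 0.0494), and 1.83% of all genes. NOL10, a WD-repeat partner of AATF, had efficiency changes of -0.52 ± 0.16 and -0.59 ± 0.16 in edgeR (adjusted p = 0.0638 and 0.0919). The first was called by edgeR with plain library totals (0.0391) and with the replicate number as a block within IN and within RPF (0.0402). NOP14 had a change of -0.38 ± 0.20 with SH2 (edgeR adjusted p = 0.32), which became -0.67 and called without SC replicate 2 (edgeR adjusted p = 0.0194).

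RRP7A, a UTP-C protein, had RNA of 97, 97.5 and 102 CPM in SC, 92.5, 86.9 and 103 in SH2 and 93.5, 115 and 106 in SH3, with all groups overlapping. Its footprints were 152, 139 and 125 CPM in SC, 77, 79.3 and 92.6 in SH2 and 126, 134 and 119 in SH3. The ratio of mean footprint to mean RNA CPM was 1.4 (1.22 to 1.57) in SC, 0.883 (0.751 to 1.07) in SH2 and 1.21 (1.04 to 1.44) in SH3. In parentheses are the lowest and highest quotients of any footprint and any RNA library of a group. Libraries were not matched by replicate number, which does not pair the 2 kinds of library in SC and SH2. The SH2 range lay below that of SC and overlapped that of SH3. Efficiency changed by -0.68 ± 0.16 with SH2 (edgeR adjusted p = 0.0224) and by -0.20 ± 0.16 with SH3 (edgeR adjusted p = 0.667). The SH2 efficiency call held with the replicate number as a block within IN and within RPF (edgeR adjusted p = 0.0177). It was lost where the block tied IN to RPF libraries of the same number (edgeR adjusted p = 0.0501), and without SC replicate 1, SH2 replicate 1 or SH2 replicate 3 (0.0767, 0.0786 and 0.0624). The hairpins differed by -0.48 ± 0.16 in efficiency, which was not called (edgeR adjusted p = 0.225). RefSeq also lists RRP7BP, by its name a pseudogene of this family, and how reads matching both were counted is not given in the sources used here, so its counts are uncertain.

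**Figure D4:**
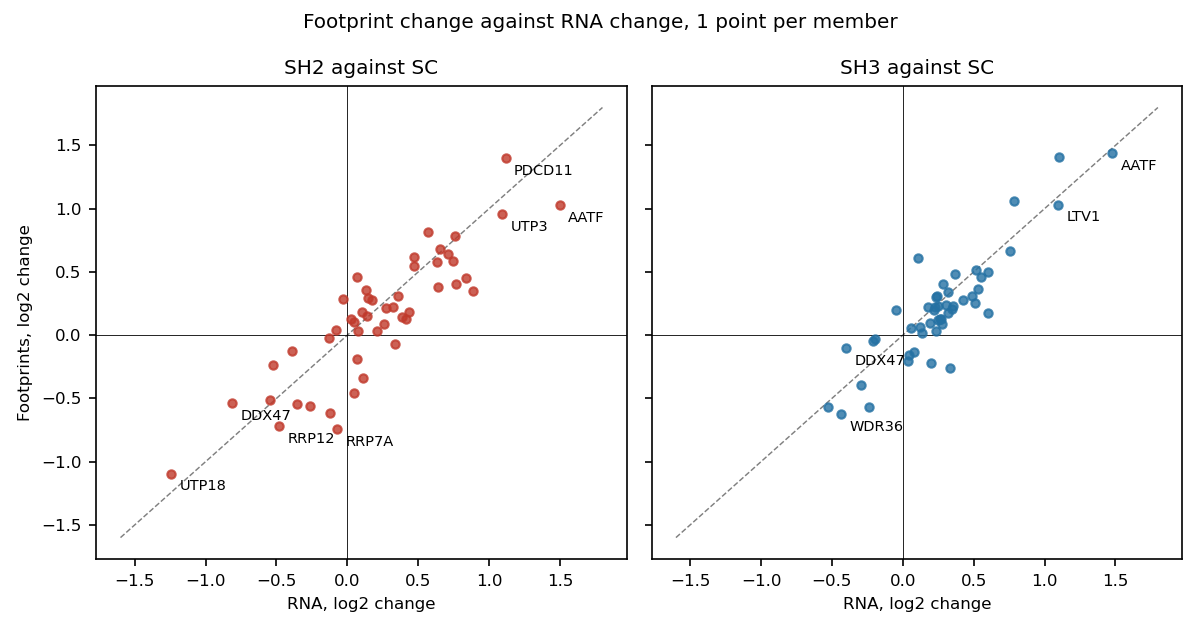
Each point is 1 of 49 genes, with the log2 RNA change on the horizontal and the log2 footprint change on the vertical axis, for SH2 and SH3 against SC, and a dashed line where the changes are equal. RRP7A lies below the line in the SH2 panel, at -0.07 in RNA and -0.74 in footprints, and AATF lies at the right edge of both panels.

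In SC alone, the ratio of mean footprint to mean RNA CPM varied among the 49 genes tested from 0.267 (0.24 to 0.294) for PDCD11 to 2.52 (2.16 to 2.95) for PNO1, with the range over library pairs in parentheses. IMP4, at 0.407 (0.34 to 0.516), and DHX37, at 0.562 (0.506 to 0.602), followed at the low end. UTP11, at 2.47 (1.88 to 3.07), and LTV1, at 2.02 (1.22 to 3.54), came next to PNO1 at the high end, and the 3 ranges overlapped. The median over the 49 was 1.1, with quartiles of 0.929 and 1.4, beside 0.812, 0.458 and 1.28 over 12519 genes tested. LTV1 had the widest range of these genes. PDCD11 thus combined the lowest ratio in SC with the largest footprint rise under SH2.

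**Figure D5:**
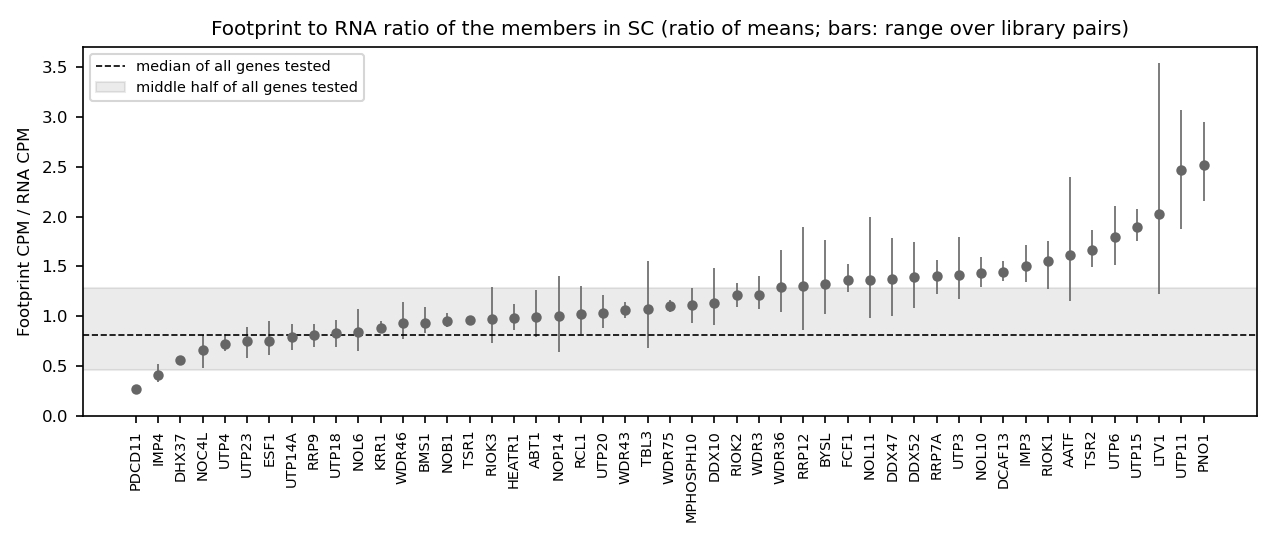
Points are mean footprint CPM over mean RNA CPM in SC, for the 49 genes tested in rising order, with bars from the lowest to the highest quotient of any footprint and any RNA library of SC. The dashed line and grey band give the median and the quartile range of all genes tested, and PDCD11 is at 0.267 and PNO1 at 2.52.

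For context, 3 lists of neighbouring pathways were read in the same fits, and differences between lists were not tested. Over all genes tested, 31.1% were called higher and 30.4% lower in RNA with SH2, and 27.8% and 25.2% with SH3. In efficiency, 3.9% and 0.686% were called in either direction. The 32 ribosomal proteins of the 40S subunit, the products that this machinery assembles, were called lower in RNA for 30 genes with each hairpin, with median changes of -0.57 and -0.63. Their median efficiency changes were 0.47 and 0.48, with 12 and 7 called higher. The 47 assembly factors of the 60S subunit had 16 higher and 9 lower in RNA with SH2 and 18 higher and 6 lower with SH3, with medians of 0.14 and 0.19. A further 28 genes of the processome and pre-40S pathway had 8 higher and 4 lower with SH2 and 12 higher and 1 lower with SH3.

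In the authors' deposited table, the DESeq2 adjusted p-values called 20 of these genes higher and 8 lower in IN with SH2, and 21 higher and 4 lower with SH3. In either direction, they called 7793 of all 17017 genes in IN with SH2 and 6706 with SH3. For RPF the authors' deposited table gave 12 higher and 9 lower, and 11 higher and 2 lower. Of all genes it called 4249 and 3456 in RPF in either direction, and some genes have no adjusted p there. Its further measure, named RD, held identical values for SH2 and SH3 in all 17017 genes. Those RD values lay closer to the footprint minus RNA difference of SH3 (median absolute difference 0.0255 over 14348 genes in the authors' deposited table) than of SH2 (0.297), and so no RD value is used here.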

How the data were processed

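One table of the whole series was used. The authors deposited raw, whole-number counts for every gene in each library. Beside them stand columns of normalized signal (counts after DESeq2 scaling, per the file headers), which entered no test. The log2 changes and p-values of the authors' deposited table come, per the file headers, from DESeq2. The submitters' processing notes name Bowtie 1.2.2 and DESeq2. The role of each, the counting tool, strand use, treatment of reads matching several places, annotation and genome build are not given in the sources used here. RefSeq tables (GRCh38.p14) supplied promoters, copies and overlaps only.

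The 9 IN and the 9 RPF libraries were fitted separately in edgeR 4.0.16 (R 4.3.3; filterByExpr, TMM factors, glmQLFit and glmQLFTest, two-sided), without a block. Translational efficiency was an interaction contrast over all 18 libraries. SE is the absolute log2 change divided by the square root of F. CPM values use TMM-scaled library sizes. Median counts per member ran from 1858.5 to 2498 in IN and from 149.5 to 543 in RPF libraries, so footprint changes are less precise. The code was tested on simulated data.

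Alternatives were other size factors, plain library totals, no filter, DESeq2 1.42.0, a replicate block, only the groups compared, and leaving out each replicate. Same-numbered SC and SH2 libraries deviated together within each kind (correlations 0.33 to 0.37 in IN and 0.24 to 0.29 in RPF), so there the numbers pair SC and SH2 in these data. Those of SC with SH3 ran from -0.11 to 0.28 in IN and -0.059 to 0.25 in RPF. Between IN and RPF the numbers do not pair the libraries of SC and SH2. For replicates 1, 2 and 3 these correlations were -0.49, -0.46 and 0.26 in SC and -0.30, -0.31 and 0.50 in SH2, whereas IN 1 with RPF 2 and IN 2 with RPF 1 gave 0.57 and 0.46 in SC and 0.56 and 0.49 in SH2. SH3 gave 0.42, 0.29 and 0.21 at the same number. Ratios of footprints to RNA therefore use group means, and an efficiency fit with the number blocked within each kind was added after seeing the data.

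Members and lists were chosen with earlier results of these data known. Genes given in every library were the 4 largest mean rises and falls called in the same direction by both hairpins in RNA or footprints, those called in efficiency or in opposite directions, and the 3 largest differences between hairpins. HEATR1, NOP14 and NOB1 were added after their values were seen. Footprint density per coding length was not computed, since no coding lengths were used here.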

Additional observations from a re-analysis of the deposited data

Results flagged for a closer look

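The effects of the 2 hairpins differed, by edgeR's test of SH2 against SH3 (adjusted p under 0.05), for the following genes. Values are log2 differences, SH2 minus SH3, and no cause was tested.

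In RNA, SH2 was lower for UTP18 (-1.465), RRP12 (-1.034), PNO1 (-0.6158), DDX47 (-0.4149), DCAF13 (-0.3823), NOL11 (-0.3751), UTP20 (-0.3168), WDR75 (-0.3031), UTP11 (-0.2987) and NOL10 (-0.2875). It was higher for UTP6 (0.4701), WDR36 (0.4551), RIOK3 (0.4547), FCF1 (0.4341), TSR1 (0.282) and UTP14A (0.2692). In these RNA comparisons UTP18, RRP12, PNO1, DDX47, UTP6, WDR36, RIOK3 and FCF1 were called in every alternative setting. The others lost the call when single libraries were left out (library; edgeR adjusted p without it): DCAF13 (SH2 replicate 3, SH3 replicate 3; 0.0562 to 0.0563), NOL11 (SH2 replicate 1 or 3, SH3 replicate 1 or 2 or 3; 0.0685 to 0.194), UTP20 (SH2 replicate 1 or 3, SH3 replicate 2 or 3; 0.0641 to 0.119), WDR75 (SH2 replicate 1 or 3, SH3 replicate 1 or 2 or 3; 0.0655 to 0.185), UTP11 (SH2 replicate 1 or 3, SH3 replicate 2 or 3; 0.0689 to 0.129), NOL10 (SH2 replicate 1 or 3, SH3 replicate 1 or 2 or 3; 0.0753 to 0.173), TSR1 (SH3 replicate 1 or 3; 0.054 to 0.0825) and UTP14A (SH2 replicate 1 or 2, SH3 replicate 1 or 3; 0.0528 to 0.118).

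In footprints, SH2 was lower for UTP18 (-1.29), RRP12 (-1.179), PNO1 (-0.6754), RRP7A (-0.6081), TSR2 (-0.5884) and RIOK1 (-0.5718). It was higher for WDR36 (0.7464), FCF1 (0.5494), RIOK2 (0.5276), UTP6 (0.5018) and TSR1 (0.3808). Of these, UTP18, RRP12, RRP7A and WDR36 were called in every alternative setting. The others lost it without single libraries: PNO1 (SH2 replicate 2, SH3 replicate 2; 0.0509 to 0.0805), TSR2 (SH2 replicate 1 or 3, SH3 replicate 2; 0.0756 to 0.13), RIOK1 (SH2 replicate 2 or 3, SH3 replicate 1 or 2; 0.0513 to 0.0982), FCF1 (SH3 replicate 3; 0.0651), RIOK2 (SH2 replicate 1, SH3 replicate 1 or 3; 0.0696 to 0.0809), UTP6 (SH2 replicate 1 or 2, SH3 replicate 3; 0.0516 to 0.0867) and TSR1 (SH2 replicate 1 or 2 or 3, SH3 replicate 1 or 3; 0.0629 to 0.177).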

How the results depend on the processing

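No call reversed its direction in any of the 12 alternatives run for each comparison, or in the 13 for efficiency. Calls held in all of them for 26 of 28 genes in RNA with SH2, 15 of 26 with SH3, and 8 of 16 between the hairpins. In footprints these were 15 of 22, 7 of 13 and 4 of 11, and in efficiency 0 of 1.

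Leaving out 1 replicate at a time, the RNA calls ran from 26 to 30 with SH2, 17 to 24 with SH3 and 8 to 23 between the hairpins. The shares of all genes called in RNA ran from 53.6% to 59.5%, 44% to 49.9% and 29% to 39.5% in that order. Footprint calls ran from 17 to 23, 9 to 15 and 7 to 8, where 35.8% to 45.7%, 25.2% to 36% and 14.7% to 20% of all genes were called. Efficiency calls ran from 0 to 2 with SH2 and 0 to 0 in the others. For SH2, 0.87% to 4.39% of all genes were called in efficiency. With the replicate block, footprint calls between the hairpins rose from 11 to 17, and the share of all genes from 23.8% to 29.2%. Efficiency calls with SH2 fell from 1 to 0 with the block, as they did (0) with only the groups compared. Of all genes, 3.9% were called in efficiency with SH2, 1.52% with the block and 1.48% with only the groups compared. That efficiency block, and the efficiency fits without a replicate, take IN and RPF libraries of 1 number together, which the libraries' deviations go against in SC and SH2. A block within IN and within RPF, added after seeing the data, gave 2 efficiency calls with SH2 (RRP7A and NOL10) and 0 in the other comparisons. It called 6.03% of all genes with SH2, 1.2% with SH3 and 0.599% between the hairpins. Plain library totals gave 2 efficiency calls with SH2, where they called 4.83% of all genes. DESeq2 gave 2 with SH2, 1 with SH3 and 1 between the hairpins. Of all genes, DESeq2 called 7.26%, 2.83% and 1.83% in that order. In the blocked fit of SH2 against SC, calls were gained for DDX52 RNA (edgeR adjusted p = 0.0303) and for UTP14A, WDR46 and NOC4L footprints (0.0411, 0.0379 and 0.0115). Beside these and the PNO1, TBL3, NOL10 and RRP7A values above, the block changed no other call in that comparison. For SH3 the numbers pair the libraries only in part. In IN, replicates 1, 2 and 3 of SH3 gave same-number correlations of 0.24, -0.11 and 0.28 with SC. With SH2 these were 0.46, 0.019 and 0.26.

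RPF libraries hold fewer counts than IN libraries, and footprint changes have the larger errors for most members.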
